A study of Mus musculus with 46 samples.

Results

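The comparison described here sets 5 livers of mice on western diet against 5 livers of mice on high-fat diet, all from littermate controls of a Plvap knockout line. The 10 livers were chosen by their diet and genotype labels, and they are 10 of the 46 livers in the series. The series concerns the stellate cells of the liver, which store vitamin A, and their effect on fatty acid use through Plvap, which forms the diaphragms of caveolae and fenestrae. All 10 mice were C57BL/6JBomTac males, and each liver was snap frozen and sequenced as bulk total RNA. They ate their diet for 6 weeks and were fasted for 12 h overnight. The western diet group also drank fructose in water, and the high-fat group drank normal water. The composition of either diet is not given in the sources used here, so its fat, sugar and cholesterol content cannot be told apart from the fructose. The line carries the allele Plvaptm1.1Salm and the transgene Tg(Lrat-cre)1Rshw, whose Lrat promoter is active in stellate cells. The labels do not say which alleles the littermates carry. Plvap was at 29.5 ± 7.25 CPM on western and 28.7 ± 3.63 CPM on high-fat diet (SD, n = 5 each). Further groups are used where named: 4 western and 5 high-fat livers of the stellate cell knockout under the same conditions, and 6 fasted littermate controls on chow.

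Values are CPM (counts scaled to a common library total), corrected for library composition, with SD over the 5 livers of a group. Differences are log2 fold changes of western minus high-fat diet ± SE from edgeR's quasi-likelihood test, and genes with a p under 0.05 after Benjamini-Hochberg adjustment over all genes tested count as called. Adjusted p values without another name come from that test. Libraries held 6656342 to 21570506 counts. The lowest total was that of high-fat control D, and the next lowest high-fat total was 10745011. High-fat control D also had the fewest genes with at least 1 count (17302). Nothing in the labels ties the animals to cages or litters, so the p-values measure the spread between these samples. These are bulk samples, in which fewer cells of a type and less RNA per cell cannot be told apart.

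The western control A stood apart from the other libraries. Its mean Spearman correlation with its own group was 0.9665, against 0.9774 to 0.9809 for the other 4 western livers. It held 607 counts of the adrenal steroid hydroxylase Cyp21a1 (36.7 CPM), where the other western livers had at most 6, and 332 counts of Cyp11a1, where they had 0. High-fat controls held 5 to 36 counts of Cyp21a1, and high-fat control A held 7 of Cyp11a1. Other genes chosen after their values were seen were also high in western control A, such as the interferon-induced Oas1a at 24.1 CPM against 2.09 to 2.47 in the others of its group and 3.16 to 5.78 CPM on high-fat diet. The part of this library in any single result was not tested beyond leaving it out. Counts without this library stand beside those of the gene groups described in most detail. The hepatocyte markers summed to 45131 to 63086 CPM on western and 46125 to 54522 CPM on high-fat diet. Of 17 library and cell marker measures none passed adjustment. Endothelial markers (105 to 139 against 147 to 171 CPM) and pancreas markers (11.9 to 21.9 against 32.4 to 47.7 CPM) did not overlap between the diets. Both had the smallest exact permutation p that 5 against 5 livers allow, 0.00794 (two-sided, adjusted p 0.0675). Among the pancreas markers Prss1 and Cpa1 were at 0 in all 10 livers, so that Cela1 made up the sum.

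The liver makes cholesterol from acetyl-CoA through a chain of enzymes that runs from mevalonate through squalene and lanosterol to the sterol reductases. When sterols are scarce the transcription factor SREBP2 raises the genes of the chain, and when they are plentiful it stays in the endoplasmic reticulum, held by INSIG proteins. Oxysterols in turn activate the nuclear receptor LXR, which raises the sterol exporters ABCG5 and ABCG8 and desaturation of fatty acids. PPARA drives fat oxidation in the fasted liver, and the unfolded protein response supplies chaperones to the endoplasmic reticulum.

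Western diet livers had lower levels of most cholesterol synthesis genes than high-fat diet livers, and far higher levels of the stearoyl-CoA desaturase Scd1. In all, 149 genes were higher on western diet and 134 lower, which is 1.10% and 0.990% of the 13533 genes tested, or 2.09% together. The median log2 fold change of all genes was 0.00. Of the called genes 45 were at least 2-fold higher and 60 at least 2-fold lower. The libraries of the diets did not overlap for 227 of the 283, and over all genes tested for 591 (4.37%), of which 301 were higher (2.22%) and 290 lower (2.14%) on western diet. The count fell to 132 genes without high-fat control C, 142 without high-fat control D and 180 without western control D, and it was 307 without western control A.

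Of 27 genes of cholesterol synthesis and its SREBP2 control, all of them tested, 17 fell and none rose, against 0.990% of all genes lower. Their median log2 fold change was -1.17, and all 27 were on the negative side. The count lay between 11 and 16 when each library was left out in turn. It was 11 without high-fat control C, high-fat control D or western control E, and 14 without western control A. In knockouts of the same experiment 15 of the 27 were lower and none higher (4.01% of all genes lower), with a median of -1.02.

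The steps from mevalonate to farnesyl pyrophosphate were among the largest falls. Idi1 (ENSMUSG00000058258, GRCm39 chromosome 13, 8935537 to 8942487) encodes the isopentenyl diphosphate isomerase. It was at 5.09, 4.92, 7.68, 6.4 and 2.13 CPM in high-fat controls A to E and at 0, 0.374, 0.293, 0.265 and 0.0666 CPM in western controls A to E. No western liver came near the lowest high-fat liver, and the gene fell by 4.73 ± 0.71 (adjusted p 0.00129). Mvk and Mvd, the mevalonate kinase and the mevalonate diphosphate decarboxylase, fell by 1.86 ± 0.27 and 3.24 ± 0.53. Fdps, the farnesyl diphosphate synthase, stood at 1.95 ± 0.31 against 14.5 ± 5.19 CPM (-2.87 ± 0.43, adjusted p 0.0015). The kinase between Mvk and Mvd, Pmvk, was at 10.6 ± 1.31 against 17.2 ± 2.23 CPM without overlap, and its adjusted p was 0.0709.

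The squalene and lanosterol steps followed the same direction. Sqle (chromosome 15, 59186926 to 59203041), the squalene epoxidase and a rate-limiting enzyme of the late chain, was at 42.2, 41.9, 47.3, 45.4 and 11.9 CPM in high-fat controls A to E. It was at 3.03, 4.48, 2.64, 2.3 and 2.26 CPM in western controls A to E, and fell by 3.68 ± 0.54 (adjusted p 0.00166). High-fat control E was the lowest of its group for Sqle and for 14 of the other 16 called members. Cyp51, the lanosterol demethylase, was at 134, 131, 141, 151 and 76 CPM in high-fat controls A to E and at 17.5, 33, 16.9, 15.4 and 22.2 CPM in western controls A to E. The groups lay far apart, and the gene fell by 2.59 ± 0.33 (adjusted p 0.000445). Further along the chain, the methylsterol oxidase Msmo1 and the dehydrogenase Nsdhl fell by 3.00 ± 0.37 and 2.20 ± 0.34.

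Smaller falls were seen in other enzymes from squalene onward, named after their values were seen. The squalene synthase Fdft1 (-0.91 ± 0.22, adjusted p 0.0355), the lanosterol synthase Lss (-1.34 ± 0.25, adjusted p 0.0062) and the sterol reductases Tm7sf2 (-1.06 ± 0.25, adjusted p 0.0335) and Dhcr7 (-1.17 ± 0.29, adjusted p 0.0461) were called. Fdft1 was no longer called without 6 of the 10 libraries taken singly, Dhcr7 without 8 and Tm7sf2 without 9, and Lss was called without any of them.

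Near the head of the chain, Hmgcs1, the cytosolic HMG-CoA synthase and a gene chosen with its values in view, was at 130, 108, 165, 158 and 59 CPM in high-fat controls A to E and at 29.4, 50.4, 46.6, 51 and 39.5 CPM in western controls A to E. The groups did not overlap (-1.51 ± 0.36, adjusted p 0.0382), but the call held only without high-fat control E and was lost without each of the other 9 libraries (adjusted p up to 0.105).

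The Hmgcs1 promoter is shown because it was the only one of the list to hold a classical SREBP motif in the bases searched. The motif TCACNCCAC was looked for on both strands in the 250 bases before the start site, in RefSeq promoters of GRCm38.p6, a build other than that of the counts. It lay in 1 of the 19 members with a promoter in the table, and in 1.05% of 32851 promoters. Capitals mark the motif, which starts 137 bases before the start site at chr13:119690189-119690247 on the plus strand.
Hmgcs1: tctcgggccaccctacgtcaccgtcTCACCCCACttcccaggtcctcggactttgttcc
A match is a string of letters and not a measured site.

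Regulators and partners of the chain moved to different degrees. The sterol carrier Stard4 fell by 1.95 ± 0.32. Insig1, which holds SREBP proteins back, and Srebf2, which encodes SREBP2, fell by 1.22 ± 0.27 and 0.74 ± 0.17 (both named after their values were seen, and lost without 4 and 6 of the single libraries).

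**Figure D1:**
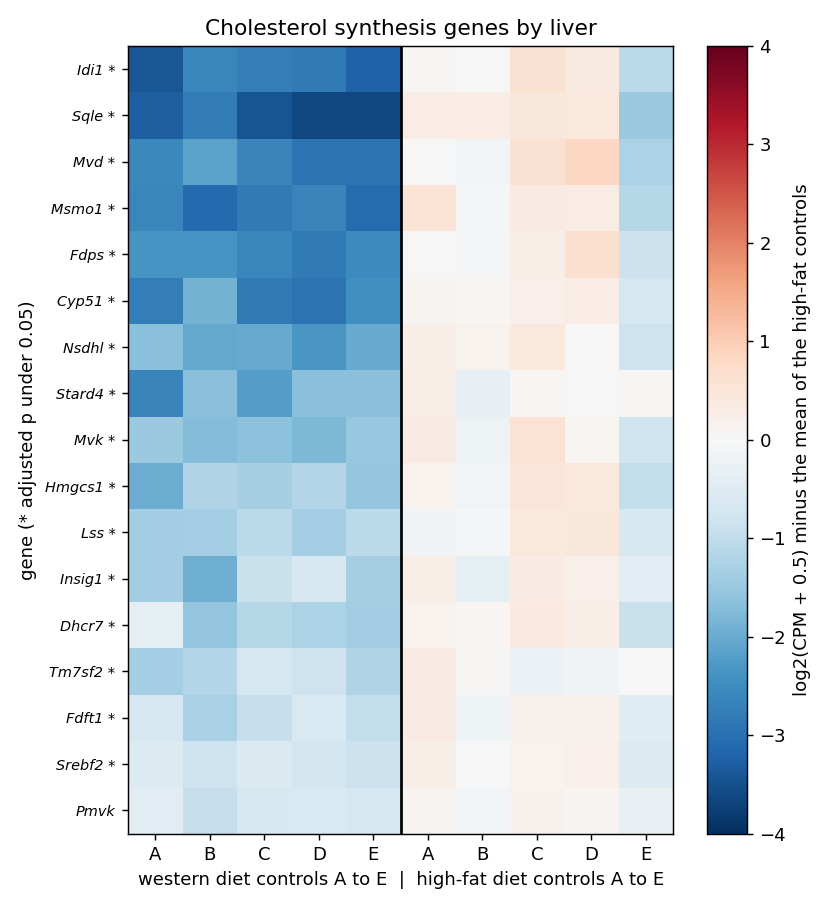
Each row is 1 of the cholesterol synthesis genes reported here and each column a control liver (western A to E, then high-fat A to E); color is log2(CPM + 0.5) minus the mean of the high-fat controls, and an asterisk marks an adjusted p under 0.05. Western livers (blue) are below the high-fat mean for the genes shown, and high-fat control E is bluer than the other high-fat livers in many rows.

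Across the whole list the livers fell into separate ranges. The mean of the 27 genes, as log2 relative to the high-fat mean, was -1.60, -1.56, -1.45, -1.50 and -1.63 in western controls A to E. It was 0.19, -0.06, 0.23, 0.17 and -0.53 in high-fat controls A to E. High-fat control E was the lowest of its group and still above every western liver.

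The sterol exporters Abcg5 and Abcg8 rose in western livers, and most other genes of their list did not pass the test. Of 16 tested sterol export and LXR target genes 3 rose and none fell, against 1.10% of all genes higher, with a list median of 0.37. Abcg5 and Abcg8 encode the subunits of the transporter that passes cholesterol into bile. Abcg5 was at 207, 128, 235, 227 and 150 CPM in western controls A to E and at 89.7, 69.7, 61.5, 46 and 84 CPM in high-fat controls A to E. No libraries overlapped, and Abcg5 rose by 1.43 ± 0.19 (adjusted p 0.000293). Abcg8 rose by 0.92 ± 0.13 (adjusted p 0.00041). The 2 genes overlap on chromosome 17, where the counting strand is not given in the sources used here, so shared reads cannot be told apart. Lpcat3, which puts polyunsaturated fatty acids into phospholipids, was at 88.5 to 94.8 CPM (median 90.4) on western and 56.1 to 63 CPM (median 60.5) on high-fat diet. Its groups were narrow and apart (0.60 ± 0.07, adjusted p 0.000118). The exporters Abca1 and Abcg1 had differences of 0.08 (adjusted p 0.9) and 0.46 (adjusted p 0.337).

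**Figure D2:**
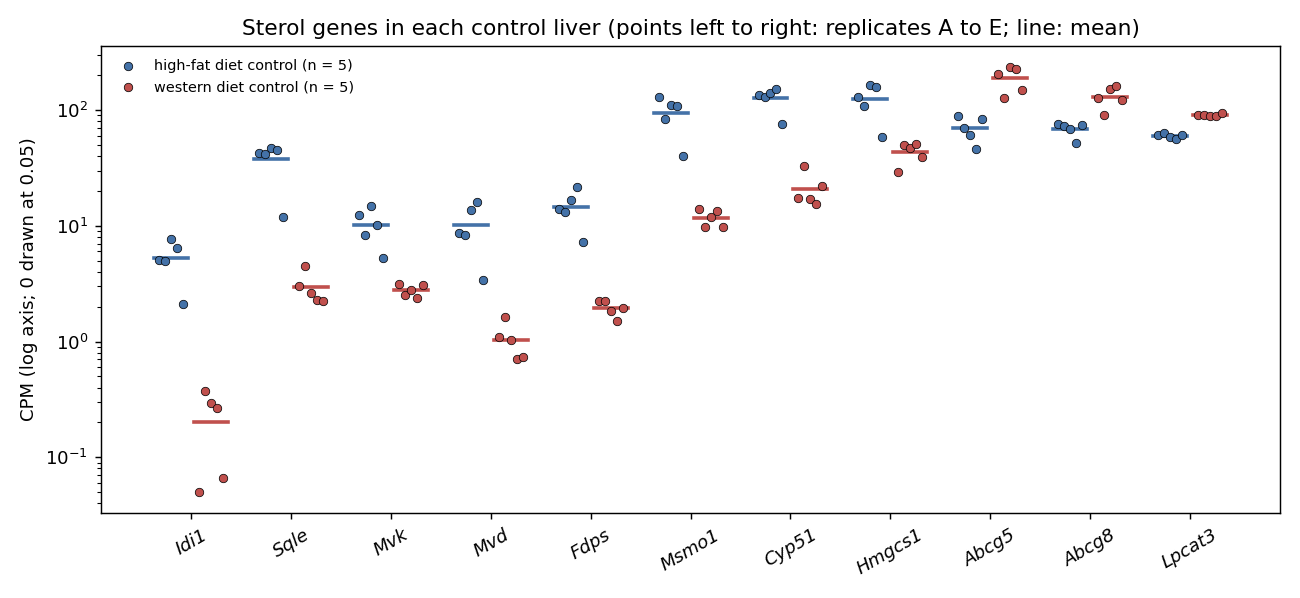
CPM on a log axis for sterol genes, with 1 point per control liver and a line at the mean of each diet. Idi1, Sqle, Fdps and Cyp51 separate by diet, and Abcg5, Abcg8 and Lpcat3 lie higher on western diet.

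The desaturase Scd1 and the elongases Elovl5 and Elovl2 rose, while the first steps of fat synthesis did not pass the test. Scd1, which makes oleate from stearate, was at 7457, 9708, 6500, 12347 and 6316 CPM in western controls A to E and at 265, 116, 216, 654 and 921 CPM in high-fat controls A to E. The lowest western liver was several times above the highest high-fat liver, and Scd1 rose by 4.29 ± 0.71 (19.5-fold, adjusted p 0.00416). Elovl5 and Elovl2, elongases of polyunsaturated fatty acids, rose by 1.32 ± 0.19 and 0.83 ± 0.21, and Elovl2 lost its call without 8 of the single libraries. Of 25 tested fatty acid synthesis genes 2 rose (Scd1 and Elovl5) and none fell, against 1.10% of all genes higher. The synthase Fasn was at 29.9 ± 12.3 on western against 40.2 ± 8.45 CPM on high-fat diet (-0.42 ± 0.32, adjusted p 0.581). Acaca, the carboxylase that makes malonyl-CoA, was at 14.9 ± 3.08 against 12.3 ± 1.52 CPM (adjusted p 0.461). The desaturases Fads1 and Fads2 also overlapped between diets (adjusted p 0.983 and 0.506).

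Khk, the ketohexokinase that starts fructose use, was at 361 ± 30.4 and 360 ± 48.4 CPM (0.00 ± 0.13, adjusted p 0.995).

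Some PPARA targets were higher on western diet, although all mice were fasted. Of 27 tested 5 rose and none fell, against 1.10% of all genes higher (list median 0.33). Cyp4a14, an omega-hydroxylase of fatty acids, was at 5008, 6290, 5747, 8421 and 8898 CPM in western controls A to E and at 2095, 3419, 1984, 895 and 1373 CPM in high-fat controls A to E. The groups did not overlap (1.81 ± 0.41, adjusted p 0.0258). Ehhadh, a peroxisomal oxidation enzyme, rose by 1.73 ± 0.38, the omega-hydroxylase Cyp4a10 by 1.27 ± 0.32, and Retsat, a retinol saturase, by 0.86 ± 0.20. Cyp4a10 and Cyp4a14 belong to a family of near-identical genes whose reads counting may split, so their single values are uncertain. The count fell to 0 without high-fat control D and to 1 without high-fat control E or western control E. None of 31 oxidation or 7 ketogenesis genes was called. Without western control A 3 oxidation genes were.

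Genes of lipid droplets rose in 6 of 33 cases, against 1.10% of all genes higher (list median 0.27). The count lay between 4 and 8 with single libraries left out (7 without western control A, where 1 other member was lower). Hsd17b11 and Hsd17b13, droplet-bound dehydrogenases that lie side by side on chromosome 5, rose by 0.95 ± 0.13 and 0.68 ± 0.12. The droplet protein Plin3 rose by 0.60 ± 0.12 and the fatty acid binding protein Fabp2 by 1.11 ± 0.20. Cidec, which fuses droplets, was at 21.3, 29.1, 10.8, 12.2 and 40.9 CPM in western controls A to E and 9.15, 10.4, 8.63, 6.69 and 6.23 CPM in high-fat controls A to E. Its groups touched closely without overlap (1.46 ± 0.32, adjusted p 0.0194), and the call was lost without high-fat control C, D or E. Plin2, the main coat protein of hepatocyte droplets, was at 901 to 1865 against 696 to 1260 CPM (adjusted p 0.556). Of 21 lysosome genes 3 rose, against 1.10% of all genes higher, among them the acid lipase Lipa (0.46 ± 0.11). In this list 0 were called without high-fat control C or D.

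Secreted and receptor genes showed large single changes. Apoa4, a lipoprotein made in liver and gut, was at 2260, 1588, 612, 1085 and 1998 CPM in western controls A to E and at 192, 328, 293, 269 and 184 CPM in high-fat controls A to E. No libraries overlapped, and Apoa4 rose by 2.58 ± 0.33 (adjusted p 0.000388). Apob, the structural protein of VLDL, was at 5733 ± 1599 against 4948 ± 387 CPM (adjusted p 0.623). Lepr, the leptin receptor, was at 45.8, 40.6, 25.3, 23.4 and 86 CPM in western controls A to E and at 3.58, 5.83, 4.13, 4.27 and 5.97 CPM in high-fat controls A to E. The western livers varied widely yet all lay above the high-fat ones, and Lepr rose by 3.20 ± 0.45 (adjusted p 0.00124). Igfbp2, which binds IGF, rose by 1.17 ± 0.18, and Enho, which encodes adropin, fell by 1.76 ± 0.35. Igfbp1, which also binds IGF, had means of 173 against 41.4 CPM with overlap (adjusted p 0.132).

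Some genes of amino acid breakdown and of the periportal zone, where hepatocytes make urea and glucose, rose on western diet. Of 20 amino acid genes 7 rose and none fell (list median 0.56), against 1.10% of all genes higher. Of 20 periportal genes 7 rose and none fell (list median 0.60), and the lists share members. Agxt, a peroxisomal aminotransferase, was at 716, 395, 644, 621 and 755 CPM in western controls A to E and at 283, 360, 306 and 250 CPM in high-fat controls A to D, with E between D and A. Western control B lay nearest the high-fat livers, without overlap (1.11 ± 0.18, adjusted p 0.00129). Hal, the histidine ammonia-lyase, rose by 1.17 ± 0.24 and Sdsl, related to serine dehydratase, by 1.38 ± 0.24. Ass1, the argininosuccinate synthase of the urea cycle, was at 1730, 819, 1702, 1511 and 1619 CPM in western and 1014, 852, 770, 633 and 795 CPM in high-fat controls A to E. Western control B lay inside the high-fat range (0.86 ± 0.21, adjusted p 0.0357), and 8 of the single libraries took the call away. Cps1, the first enzyme of the cycle, had a difference of 0.85 ± 0.25 (adjusted p 0.0762). Etnppl, a phospholyase of the periportal list, rose by 2.62 ± 0.48 (169 ± 79.2 against 27.4 ± 14.7 CPM). With single libraries left out the amino acid count lay between 4 and 9 (6 without western control A) and the periportal count between 4 and 8 (5 without western control A). In knockouts the amino acid count was 0, against 4.43% of all genes higher there, with a median of 0.09. The edgeR test of the difference between genotypes called 0 genes, so no member was called as differing in its diet effect.

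Of 20 tested targets of the xenobiotic receptors CAR, PXR and AHR 4 rose and none fell, against 1.10% of all genes higher (list median 0.61). The count lay between 1 and 4 with a library left out and was 3 without western control A. Cyp3a11, the main Cyp3a of mouse liver, was at 2058, 2987, 5307, 3233 and 1595 CPM in western controls A to E and at 40.6, 244, 484 and 563 CPM in high-fat controls A, B, D and E, with C between B and D. No libraries overlapped (3.13 ± 0.66, adjusted p 0.0206), and the adjusted p was 0.0579 without high-fat control B and 0.06 without high-fat control C. Cyp3a59 and Cyp3a25 rose by 2.54 ± 0.43 and 1.25 ± 0.26. These genes share long stretches of sequence, so reads may be split among them. Cyp1a2, a target of AHR, had a difference of -0.13 (adjusted p 0.817).

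**Figure D3:**
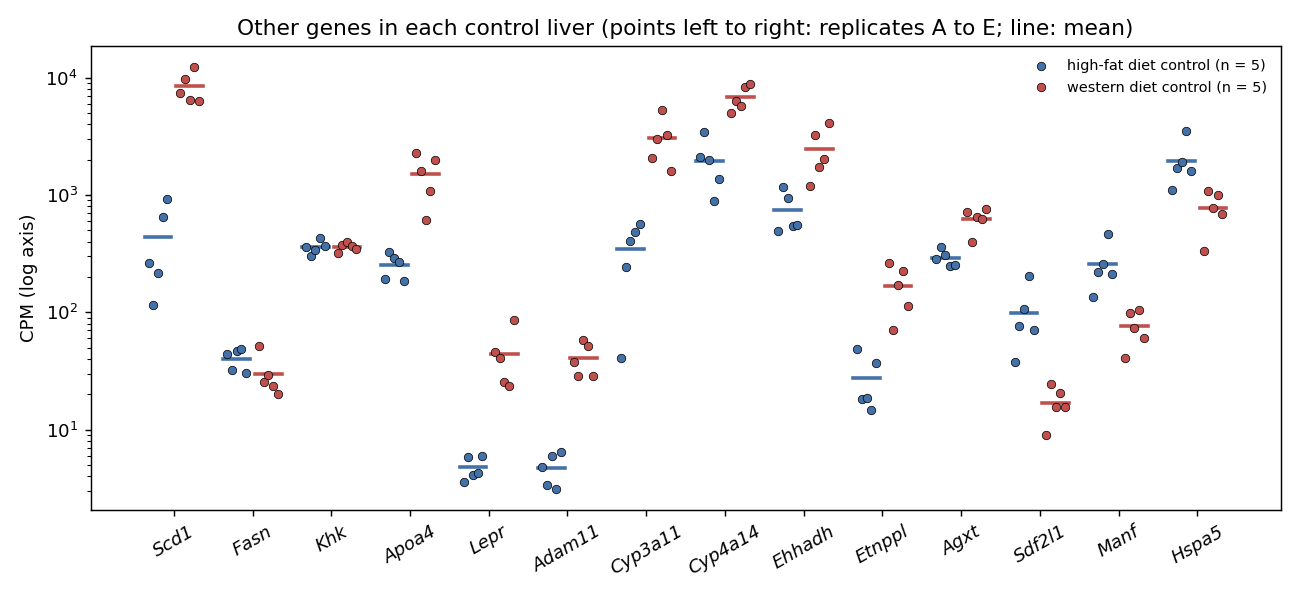
CPM on a log axis for 14 further genes, with 1 point per control liver and a line at the mean of each diet. Scd1, Apoa4, Lepr, Adam11 and Cyp3a11 separate by diet, Fasn and Khk overlap, and Sdf2l1, Manf and Hspa5 lie lower on western diet with a wide spread on high-fat diet.

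A few chaperone genes of the endoplasmic reticulum fell on western diet, and leaving out single livers changed how many were called. Of 24 unfolded protein response genes 5 fell and none rose, against 0.990% of all genes lower (list median -0.84). Sdf2l1, a cofactor of the chaperone BiP, was at 37.6, 76.4, 106, 202 and 71.3 CPM in high-fat controls A to E and at 8.9, 24.4, 15.5, 20.5 and 15.6 CPM in western controls A to E. High-fat control D was far above its group, and no libraries overlapped (-2.53 ± 0.55, adjusted p 0.0245). The secreted factor Manf, the disulfide isomerase Pdia6, the lectin chaperone Calr and the HSP90 of the reticulum, Hsp90b1, fell by 1.77 ± 0.44, 1.27 ± 0.32, 1.16 ± 0.27 and 1.02 ± 0.26. Hspa5, which encodes BiP, was at 776 ± 293 against 1967 ± 907 CPM without overlap (adjusted p 0.0639). The count was 12 without high-fat control A and 0 without high-fat control C or D or western control A, C or D. Trib3, Atf3 and Sesn2 of the same list had positive differences (1.25, 1.04 and 0.70), none of them called.

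The promoters of 3 of the fallen chaperones are shown because they hold the ER stress element, a CCAAT and a CCACG box with a fixed gap, searched on both strands as above. Of the 22 list members with a promoter 7 held it (31.8%), against 0.113% of all 32851 promoters and 0.167% of the 10209 tested genes with one. Capitals mark the element, which in Calr is on the strand opposite to the gene. The Hsp90b1 promoter held 2 matches of the element, of which 1 is shown. It also held the SREBP motif, at chr10:86705465-86705523.
Pdia6: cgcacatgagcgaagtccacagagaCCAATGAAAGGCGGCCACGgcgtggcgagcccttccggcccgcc
Hsp90b1: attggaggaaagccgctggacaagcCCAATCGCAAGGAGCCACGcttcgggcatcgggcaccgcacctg
Calr: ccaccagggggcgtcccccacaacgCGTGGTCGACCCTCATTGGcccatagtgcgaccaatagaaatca
They lie in GRCm38.p6 at chr12:17266466-17266534 (plus strand), chr10:86705613-86705681 (minus strand) and chr8:84847050-84847118 (minus strand). Each is written 5′ to 3′ along its gene.

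**Figure D4:**
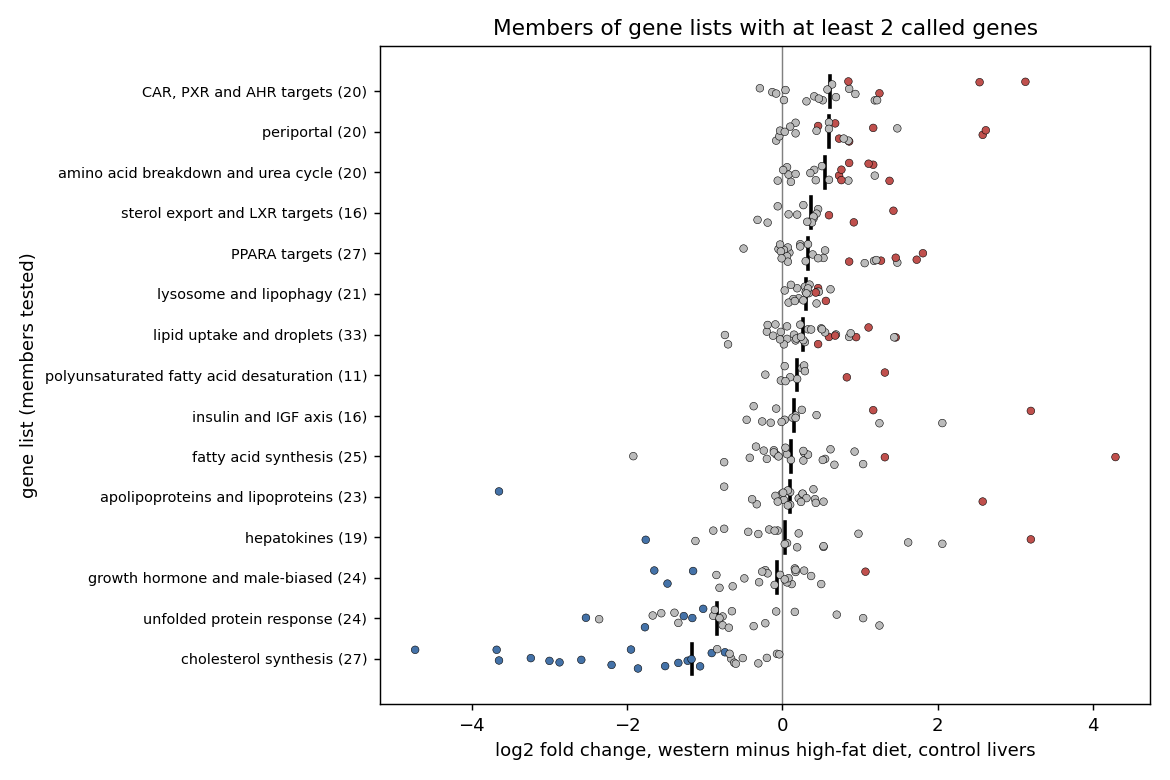
Each point is a tested gene at its log2 fold change in control livers, by gene list, with red for called higher, blue for called lower and grey for not called; the black bar is the list median. Cholesterol synthesis has the lowest median (-1.17), and the unfolded protein response follows (-0.84).

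The smallest adjusted p belonged to Adam11, a membrane protein of the ADAM family without protease activity (chromosome 11, 102652265 to 102671088). It was at 37.9, 28.9, 57.8, 51.2 and 28.6 CPM in western controls A to E and at 4.77, 3.39, 5.94, 3.13 and 6.48 CPM in high-fat controls A to E. The groups were far apart, and Adam11 rose by 3.10 ± 0.24 (adjusted p 4.57e-07). Tmem86a, a lysoplasmalogenase, and Sulf2, a heparan sulfatase, rose by 1.73 ± 0.19 and 1.69 ± 0.21. Of 24 male-biased, growth hormone dependent genes 1 rose and 3 fell, against 1.10% of all genes higher and 0.990% lower. Among them Selenbp2 was at 191 to 296 CPM (median 201) on western and 551 to 657 CPM (median 602) on high-fat diet, without overlap (-1.48 ± 0.17, adjusted p 5.65e-05). Hsd3b5, a steroid dehydrogenase of male liver, fell by 1.65 ± 0.31.

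With edgeR and all 10 control libraries, no member was called for bile acids, interferon response, acute phase, Kupffer cells and macrophages, stellate cells, fibrogenesis, cell cycle, caveolae or oxidative phosphorylation. Without western control A, 2 interferon genes, 1 stellate cell gene and 1 caveolae gene were called lower. Without western control B, 1 bile acid gene was called higher and 1 acute phase gene lower. DESeq2 called 2 acute phase genes lower, and 2 oxidative phosphorylation genes and 1 bile acid gene higher. Limma-voom called 1 caveolae gene lower. Cyp7a1, the rate-limiting enzyme of bile acid synthesis, was at 34.0 ± 24.6 against 50.8 ± 11.6 CPM (adjusted p 0.699). The acute phase gene Saa1 ran from 59.5 to 2425 CPM on western and from 65.2 to 3370 CPM on high-fat diet. Collagen Col1a1 was at 22.1 CPM in western control A and 2.3 to 4.79 CPM in the other 4 western livers, against 2.05 to 6.67 CPM on high-fat diet. Of 30 endothelial genes 1 fell, against 0.990% of all genes lower. It was Clec4g, a lectin of sinusoidal cells named after its values were seen (-0.72 ± 0.13, adjusted p 0.00486). Of the 30 endothelial genes 25 were on the negative side, with a list median of -0.24. DESeq2 called 4 of them lower, and limma-voom also called 4 lower. In knockouts 8 were lower, against 4.01% of all genes lower there.

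In Plvap knockout livers the same diets gave 1143 calls (8.45% of the genes tested), 600 higher (4.43%) and 543 lower (4.01%). The contrasts use different livers. Of the 283 genes called in controls 94 were called in knockouts too, all in the same direction, which is 33.2% of the control calls and 8.22% of the knockout calls. In 256 the sign was the same and in 27 opposite. The same count was not made over all genes tested, so it is a description only. Sqle was at 2.41 to 2.93 CPM on western and 8.02 to 64.8 CPM on high-fat diet in knockouts (-3.17 ± 0.59). Adam11 rose by 2.83 ± 0.23 there. Abcg5 was at 120 to 149 against 73.0 to 117 CPM in knockouts (0.55 ± 0.19, adjusted p 0.0759). Abcg8 had a knockout difference of -0.02 (adjusted p 0.956). The test of the difference between genotypes called 0 genes with edgeR (1546 at an unadjusted p under 0.05), 56 with DESeq2, 10 with edgeR and no filter on low counts, and 0 with limma-voom. For Abcg8 the knockout minus control difference was -0.94 (adjusted p 0.132).

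**Figure D5:**
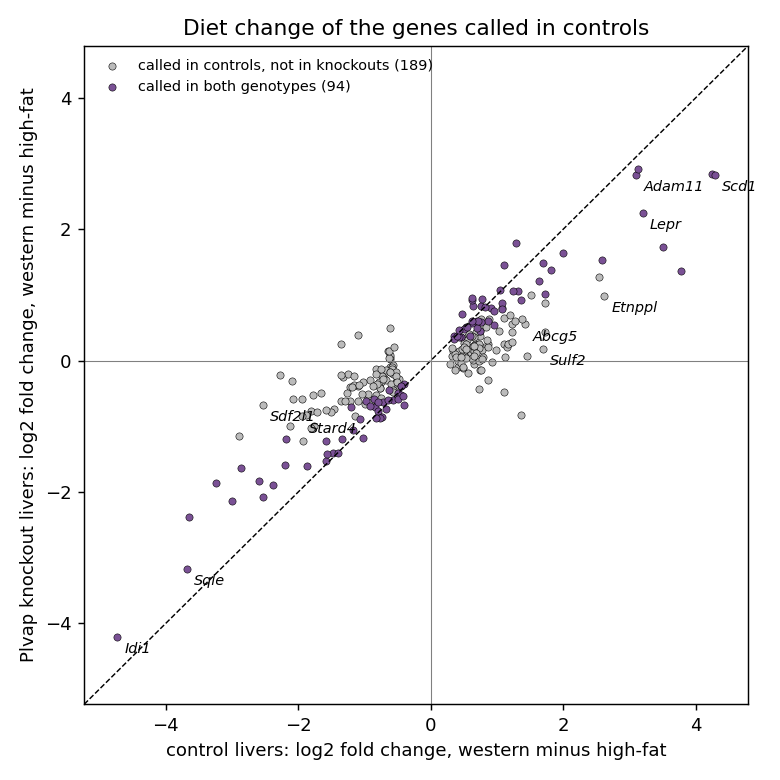
Each point is a gene called in controls, at its log2 fold change in control livers (x axis) and in knockout livers (y axis); purple marks the 94 genes called in both genotypes, and the dashed line is equality. Of the 283 points 256 have the same sign on both axes, and signs were not counted over all genes tested.

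Chow livers place these levels, as a description only, since chow livers were counted in another table and table and diet cannot be told apart. All 17 called cholesterol genes had a chow level nearer to high-fat than to western diet, with Sqle at 31.0 ± 17.9 CPM on chow, 38.2 ± 14.8 on high-fat and 2.97 ± 0.926 on western diet on a common scale. The 3 called sterol export genes were also nearer to high-fat diet. All 7 called amino acid genes and all 4 called xenobiotic targets were nearer to western diet, such as Cyp3a11 at 4902 ± 1209 CPM on chow, 3069 ± 1446 on western and 351 ± 210 on high-fat diet. All 5 called chaperone genes lay between the diets and nearer to western diet. Scd1 lay between them, at 2495 ± 395 CPM on chow, 8559 ± 2577 on western and 439 ± 344 on high-fat diet. Over all 280 called genes with a chow level 173 were nearer to western and 107 nearer to high-fat diet.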

How the data were processed

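Bulk RNA from 46 livers was sequenced, and 10 livers are compared here. Reads were aligned with STAR 2.7.8a to GRCm39 and counted per gene with featureCounts 2.0, after quality checks with FastQC 0.11.9 and MultiQC 1.10.1, per the submitters' processing notes. The annotation release and counting strand are not given in the sources used here. The deposited tables hold raw counts per gene, made by the authors, and a gene length column per the file headers. Of 55416 genes 52083 have a symbol, and the rest took 0.5614% of counts. A minimum count of 10 and minimum total of 15 (filterByExpr) left 13533 genes.

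The counts were fitted with edgeR 4.0.16 (R 4.3.3, TMM, quasi-likelihood, robust), with 1 coefficient for each of 4 diet and genotype groups over 19 libraries, so that the groups share 1 estimate of spread. P-values were adjusted by Benjamini-Hochberg over all genes, at a threshold of 0.05. The script was tested on simulated data. Alternatives were DESeq2 1.42.0 and limma 3.58.1 (voom with quality weights), other filters and scalings, a replicate block and each library left out. Named genes are the 15 largest rises and 15 largest falls without overlap of libraries, the first 2 members of each list, and up to 6 called members of each list with 2 or more; 38 more were chosen after their values were seen, not all of them reported. Beside those marked so in the text these are Pmvk, Mmab, Amdhd1, Cela1 and Trib3; Abca1, Abcg1, Cyp1a2, Atf3 and Sesn2 also fall outside the rule. The members and lists were chosen with earlier results of these data known. Promoters come from RefSeq (GRCm38.p6), matched by symbol. Some genes of the lists are counted in them but not reported here.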

Additional observations from a re-analysis of the deposited data

Results flagged for a closer look

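Of 160 groups of 5 livers tested, 15 held a liver standing far from the other 4 by Dixon's criterion; chance alone flags about 1 in 20 groups. High-fat control E held 6 of them and western control A held 4. In high-fat control E, Sqle was at 11.9 CPM (41.9 to 47.3 in the others), Cyp51 at 76 CPM (131 to 151), Lipa at 160 CPM (196 to 202), Cyp2f2 at 660 CPM (513 to 542) and Serpinb1a at 8.28 CPM (2.25 to 3.99). Its muscle markers summed to 0.171 CPM (0 to 0.0452). In western control A, Selenbp2 was at 296 CPM (191 to 201) and Rian at 1.63 CPM (0.22 to 0.399). This library had 21866 genes with at least 1 count (18696 to 19445), and muscle markers at 0.0605 CPM (0 in the others). Serpinb1a was at 25.1 CPM in western control D (9.42 to 13.9), and Ass1 was at 819 CPM in western control B (1511 to 1730). In high-fat control A, Cyp3a59 was at 12.2 CPM (4.95 to 6.6) and adipocyte markers at 20.5 CPM (0.361 to 2.17). Adipocyte markers were higher still in western control A (25.3 CPM), which was not flagged for them, with western control B at 8.22 CPM. Sgsm1 was at 2.13 CPM in high-fat control D (0.797 to 1.02).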

How the results depend on the processing

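The 283 calls in controls became 598 with DESeq2 (337 higher, 261 lower) and 490 with limma-voom (289 and 201), of which 279 and 269 were among the 283. Leaving out 1 control library gave 132 to 307 calls. In knockouts the 1143 calls became 367 to 1715 with a library left out. The lowest came without western knockout D (367), C (368) or A (391) and high-fat knockout E (370), 620 without western knockout B, and the highest without western control A. The test of the difference between genotypes gave 0 calls, 56 with DESeq2 (25 and 31), 10 with no filter, and 0 to 1 with a library left out. Leaving out libraries of the knockout and difference comparisons was chosen after seeing the data. The cause of these shifts was not tested. Of the 93 called genes named, all 93 kept their direction in the 19 alternatives, 49 kept their call in all of them and 52 with every library left out; 16 named genes without a call were called in at least 1. Depth limits genes below about 1 CPM, such as Idi1 on western diet.

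Replicate letters did not pair the samples: the correlations of same-letter deviations were 0.218, -0.0368, -0.0164, 0.00428 and -0.158 for A to E, and only A correlated best with its own letter. A fit with the replicate block on the 10 controls gave 270 calls.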

Other observations

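A list of genes that move proteins into the endoplasmic reticulum and attach sugars to them was drawn up after the values were seen, so its counts only describe these livers. Of 43 tested members 17 fell on western diet and none rose, against 0.990% of all genes lower. The median log2 fold change was -0.43. Sec61g, a subunit of the translocation channel, was at 22.1 ± 3.41 against 39.4 ± 3.73 CPM (-0.83 ± 0.16, adjusted p 0.00577). The signal peptidase subunit Spcs3 fell by 0.62 ± 0.12, and Ostc and Krtcap2, subunits of the oligosaccharyltransferase, fell by 0.63 ± 0.14 and 0.53 ± 0.10. As mean log2 relative to the high-fat mean, western controls A to E were at -0.49, -0.44, -0.42, -0.41 and -0.45 and high-fat controls A to E at -0.16, -0.03, -0.06, 0.29 and -0.05. The groups did not overlap, and the count was 4 without high-fat control D and 12 without western control A. In knockouts 2 members were lower, near the 4.01% of all genes lower there, with a median of -0.10.

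Of the called genes 17 pairs lay within 20000 bases of each other, and in all 17 both genes moved the same way. In 6 of the pairs the genes overlap, so that reads may be shared. The same counts were not made for neighbours among all genes tested, so the pairs are a description only. Mmab and Mvk on chromosome 5 lie 208 bases apart (-0.92 and -1.86). Dync2li1 and Abcg5 on chromosome 17 lie 2645 bases apart (1.64 and 1.43). Hal and Amdhd1, both enzymes of histidine breakdown, lie 4033 bases apart on chromosome 10 (1.17 and 0.75).

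Western control A also held Star at 24.9, Hsd3b1 at 32.5 and Cyp11b1 at 11.8 CPM, genes of steroid hormone synthesis. The other 4 western livers had 0.707 to 1.83, 0 to 0.0732 and 0 CPM. High-fat control A held lower levels of the same genes, at 3.42, 2.07 and 0.716 CPM. The other high-fat livers had 1.11 to 1.4, 0 to 0.0903 and 0 CPM.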
